A study of Mus musculus with 3 samples.

Results

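The Cyp2b and Cyp3a genes encode cytochrome P450 enzymes of the liver. Of the 30921 gene symbols read by the main probe sets, 10 were taken by name: Cyp2b9, Cyp2b10 and Cyp2b13 of the Cyp2b family, and Cyp3a11, Cyp3a13, Cyp3a16, Cyp3a25, Cyp3a41a, Cyp3a44 and Cyp3a59 of the Cyp3a family. They were chosen by their levels and differences on these same 3 arrays, so every value below describes them and none is a test of them. Each gene was read by 1 probe set. The files mark 8 of these probe sets as unique to their own transcript, and those of Cyp3a41a and Cyp3a59 as also matching other transcripts.

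The arrays measured RNA of livers from outbred ICR mice, aged 10 weeks at sampling, with 1 MoGene-2_0-st array per group. The EEC+TMA mice received Ecklonia cava, a brown alga, as an ethanol extract (EEC) by mouth over 2 weeks, and then trimethylamine (TMA), a volatile amine, for 24 h. The TMA mice received distilled water over the same 2 weeks, and then TMA for 24 h. The No treatment mice received neither. TMA against No treatment therefore also holds the water, and EEC+TMA against TMA holds the extract in place of the water. The sex of the mice, the doses, the route of TMA and any pooling of RNA are unstated in the sources used here. With 1 array per group there is no spread between animals and no p-value, and the precision is limited by the number of arrays. A difference below is one between arrays.

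P450 enzymes of these families insert oxygen into drugs, steroids and other lipophilic compounds. In liver, Cyp2b genes are classic targets of the nuclear receptor CAR (Nr1i3), and Cyp3a genes of its relative PXR (Nr1i2). Both receptors pair with RXR and respond to foreign chemicals and bile acids. In mice several members of both families are also expressed more in female than in male liver, under the control of the rhythm of growth hormone secretion.

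The genes lie in tandem clusters. In the files' coordinates, whose genome build no source used here gives, the Cyp2b cluster spans 25897620 to 26772630 on chromosome 7, a stretch of 875 kb with 12 probe sets. All 10 genes overlapped the locus of the same gene in RefSeq's annotation of GRCm38.p6. Of the 7 Cyp3a genes, all but Cyp3a13 lie in a cluster from 145345270 to 146113285 on chromosome 5, 768 kb with 8 probe sets that all read Cyp3a genes. Cyp3a13 lies 7.42 Mb away on the same chromosome.

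Some genes in these clusters have promoters of very similar sequence, and others do not. The stretches printed here belong to the 2 genes whose values differed most between the arrays, each beside the family member with the most similar promoter. They are the 250 bases before an annotated transcript start, 5′ to 3′ on the gene's strand, from RefSeq on GRCm38.p6. The RefSeq locus of each of these genes begins inside its stretch, so the last bases of each stretch lie within the locus. Capitals mark the bases that differ between the genes of a pair. Cyp2b9 lies at chr7:26173159-26173408 on the plus strand and Cyp2b13 at chr7:26061245-26061494 on the plus strand. Cyp3a25 lies at chr5:146009619-146009868 on the minus strand and Cyp3a59 at chr5:146079008-146079257 on the plus strand.
Cyp2b9: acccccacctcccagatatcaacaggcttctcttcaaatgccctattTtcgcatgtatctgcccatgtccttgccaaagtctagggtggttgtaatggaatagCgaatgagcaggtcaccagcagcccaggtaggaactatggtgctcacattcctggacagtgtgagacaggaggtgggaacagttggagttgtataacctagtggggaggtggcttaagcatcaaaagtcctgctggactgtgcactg
Cyp2b13: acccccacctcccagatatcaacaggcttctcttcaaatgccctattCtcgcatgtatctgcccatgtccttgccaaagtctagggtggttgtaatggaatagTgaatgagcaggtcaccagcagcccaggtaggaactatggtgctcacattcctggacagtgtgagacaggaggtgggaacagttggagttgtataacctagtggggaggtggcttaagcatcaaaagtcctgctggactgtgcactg
Cyp3a25: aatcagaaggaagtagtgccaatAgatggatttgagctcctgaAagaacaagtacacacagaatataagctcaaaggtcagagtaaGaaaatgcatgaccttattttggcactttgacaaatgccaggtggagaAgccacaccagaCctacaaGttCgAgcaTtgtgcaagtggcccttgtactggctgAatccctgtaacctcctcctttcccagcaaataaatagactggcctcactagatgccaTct
Cyp3a59: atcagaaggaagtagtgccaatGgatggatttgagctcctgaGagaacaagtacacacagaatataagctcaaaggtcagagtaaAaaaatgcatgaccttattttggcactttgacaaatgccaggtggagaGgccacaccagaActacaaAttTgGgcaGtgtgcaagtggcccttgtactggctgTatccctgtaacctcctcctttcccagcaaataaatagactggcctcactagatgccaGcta

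Over the full 300-base window, from 250 bases before the start to 50 after it, Cyp2b9 and Cyp2b13 were 99.3% identical, with 2 mismatches. Cyp2b10, the third member of that family, shared 73.4% with Cyp2b9. Cyp3a25 and Cyp3a59 shared 96.3%, with 11 mismatches in 299 aligned bases. Among the other Cyp3a genes, Cyp3a16 shared 95.3% with Cyp3a44 and 94.6% with Cyp3a41a. All 10 genes had a window in the table, and for Cyp3a25, which had 2, the first was used.

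Cyp2b9, a P450 expressed more in female mouse liver (chromosome 7, 26173409 to 26210661, plus strand, 17 probes), gave the widest range of the family. Its log2 level was 7.26 in EEC+TMA liver, 8.27 in TMA liver and 6.24 in No treatment liver. The TMA array was highest and the No treatment array lowest, with the EEC+TMA array about midway on the log2 scale. The TMA array stood 4.09-fold above No treatment (log2 difference 2.03), which was rank 5 from the top of the 15715 genes above background on both arrays. The EEC+TMA array stood 2.03-fold below the TMA array (log2 difference -1.02) and 2.02-fold above No treatment (log2 difference 1.01). A gene counted as above background where its log2 value reached the 95th percentile of 1523 probe sets of chemosensory receptor genes, which was 3.15 in EEC+TMA liver, 3.25 in TMA liver and 3.14 in No treatment liver.

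Cyp2b10, the usual reporter gene of CAR activation by phenobarbital-type inducers (25897620 to 25926624, plus strand, 9 probes), did not share this pattern. It read 4.67 in EEC+TMA liver, 4.45 in TMA liver and 4.67 in No treatment liver. The EEC+TMA and No treatment values were identical, and the TMA array was 1.16-fold lower than either. Its TMA value lay under the 99th percentile taken as background level, which left a TMA minus No treatment difference of -0.14 (as deposited -0.22). Of its 9 probes 7 are marked in the files as matching the transcript directly. Cyp2b13, also female-biased (26061495 to 26096196, plus strand, 14 probes), had the identical log2 level of 3.87 on all 3 arrays. That is near background. With the 99th percentile as background level, its TMA minus No treatment difference was 0.23, the same as that of the undetected Cyp3a16. Its flat level therefore cannot be told from a lack of signal. A gap of 77.2 kb separates Cyp2b13 from Cyp2b9, and its promoter stretch differs from that of Cyp2b9 by the 2 capitals printed above.

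Cyp3a25, which is expressed in mouse liver and intestine (chromosome 5, 145977194 to 146009618, minus strand, 8 probes), showed another shape. Its log2 level was 6.52 in EEC+TMA liver, 6.52 in TMA liver and 8.41 in No treatment liver. Both treated arrays lay together, 0.0021 apart in log2, and the No treatment array stood alone above them. TMA was 3.72-fold below No treatment (log2 difference -1.89, rank 16 from the bottom of 15715 genes), and EEC+TMA was 3.71-fold below it (-1.89, rank 20 from the bottom of 16140). Only 4 of its 8 probes are marked in the files as matching the transcript directly.

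Cyp3a59 (146079258 to 146113285, plus strand, 10 probes, not unique), whose promoter stretch is the closest to that of Cyp3a25, lies 69.6 kb from it. It read 5.33 in EEC+TMA liver, 4.95 in TMA liver and 5.16 in No treatment liver. The EEC+TMA array was highest, 1.30-fold above TMA, and the No treatment array lay between the others. The array on which Cyp3a59 was highest is thus one on which Cyp3a25 was low.

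Cyp3a11, the main PXR-responsive P450 of adult mouse liver and the usual mouse counterpart of human CYP3A4 (145854426 to 145879964, minus strand, 11 probes, of which 6 match directly), read 10.84 in EEC+TMA liver, 10.59 in TMA liver and 10.86 in No treatment liver. The TMA array was lowest, 1.20-fold below No treatment, and EEC+TMA and No treatment lay 0.02 apart. Cyp3a13, which lies outside the cluster and is also expressed in intestine (137892932 to 137921619, minus strand, 23 probes), read 8.17 in EEC+TMA liver, 8.03 in TMA liver and 8.17 in No treatment liver. Its EEC+TMA and No treatment values were identical, and the TMA value was 1.10-fold lower.

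Cyp3a41a, a female-biased gene (145694049 to 145720136, minus strand, 38 probes, not unique), read 9.93 in EEC+TMA liver, 9.73 in TMA liver and 9.93 in No treatment liver. Cyp3a41b, its near copy and no member of the group, read 10.27, 9.98 and 10.27 on the EEC+TMA, TMA and No treatment arrays from a probe set that is not unique either, so signal of these copies cannot be told apart. Cyp3a44, also female-biased (145773983 to 145805874, minus strand, 8 probes), read 5.23 in EEC+TMA liver, 4.92 in TMA liver and 4.97 in No treatment liver. Here the EEC+TMA array was highest and the other arrays lay 0.04 apart. Cyp3a16, known from fetal and early postnatal liver (145436309 to 145469723, minus strand, 10 probes), read 1.80, 1.74 and 1.90 on the EEC+TMA, TMA and No treatment arrays, below background on each. It has no usable difference, and the other 9 genes were above background on all 3 arrays. Cyp2b19, Cyp2b23 and Cyp3a57, the remaining symbols of these families on the array, were below background on all 3 as well.

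**Figure D1:**
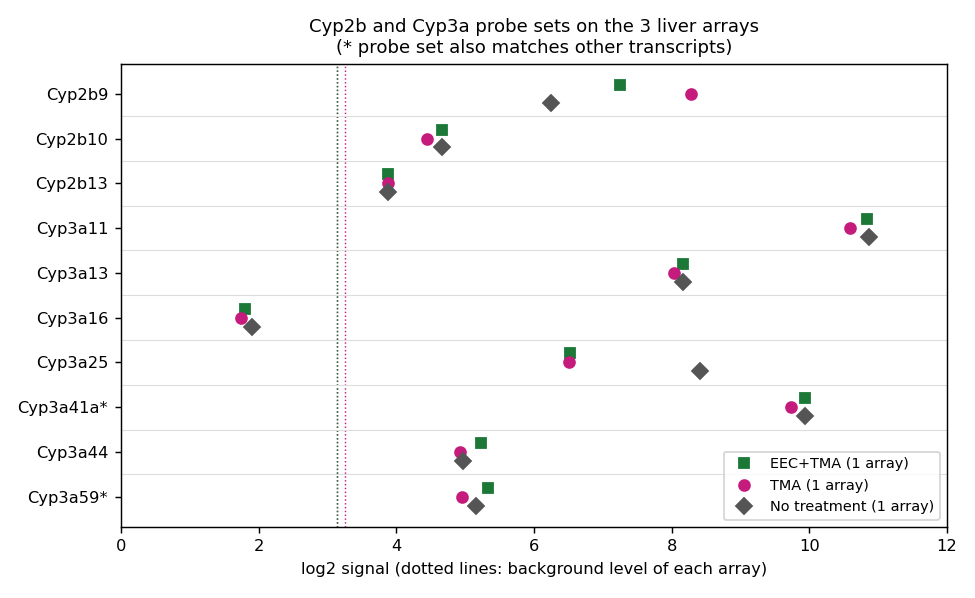
Log2 signal (x axis) of the 10 Cyp2b and Cyp3a probe sets on the EEC+TMA (squares), TMA (circles) and No treatment (diamonds) arrays, 1 array each, with the background level of each array as a dotted line. Cyp2b9 spreads over 6.24 to 8.27 and Cyp3a25 over 6.52 to 8.41, while the symbols of the other genes lie close together; levels of different probe sets are not comparable with each other.

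For TMA against No treatment, 1 of the 10 genes was at least 2-fold higher (Cyp2b9) and 1 at least 2-fold lower (Cyp3a25). Over all 30921 genes 0.340% were at least 2-fold higher and 0.653% at least 2-fold lower, where values under an array's background level were set to that level. Since the genes were chosen by this contrast, nothing is read from that comparison. Of the 9 genes above background, 7 were lower on the TMA array, 1 was higher and 1 was identical. Their median log2 difference was -0.20. Over all genes above background on both arrays, 37.6% were lower and the median was 0. Of 58 other P450 genes above background on both arrays, 70.7% were lower and 13.8% higher, with a median of -0.29. The lean of the 9 genes is thus shared by other P450 genes, and it depends on the scaling of the arrays. After quantile normalization 6 were lower and 3 higher, and after a loess correction for level 5 were lower and 4 higher. Cyp3a13 and Cyp3a41a turned to the higher side under both of these, and Cyp3a11 under loess, with sizes of at most 0.10 in log2. Cyp2b9 stayed between 1.99 and 2.28 and Cyp3a25 between -1.94 and -1.68 over the alternatives tried.

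Genes of similar level give a scale for these differences. Within 0.5 log2 units of the mean level of Cyp2b9 there were 1293 other genes, with a median difference of -0.19 and 95% of values between -0.97 and 0.49 for TMA minus No treatment. Around Cyp3a25 there were 1112 genes, with a median of -0.19 and 95% between -1.01 and 0.66. Cyp3a11, at -0.27, lay next to the median of -0.24 for genes of its level, and Cyp3a41a, at -0.20, next to a median of -0.27. The difference of Cyp3a13, -0.14, was likewise near the median of -0.23 at its level. Only Cyp2b9 and Cyp3a25 of the 9 lay outside these ranges, which is no test of them, since the genes were chosen by differences on these arrays.

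For EEC+TMA against TMA, 0 of the 10 genes were at least 2-fold higher and 1 was lower by that much, Cyp2b9. Over all genes 0.320% were at least 2-fold higher and 0.194% at least 2-fold lower. The Cyp2b9 value sits at the edge of the rule, since its fold of 2.03 became a log2 difference of -0.97 after median centring, which is under 2-fold. Of the 9 genes above background, 7 were higher on the EEC+TMA array, 1 was lower and 1 identical, with a median log2 difference of 0.20. Over all genes above background on both arrays, 36.4% were higher and the median was 0. Of 58 other P450 genes above background on both arrays, 75.9% were higher and 13.8% lower, with a median of 0.27. Under quantile normalization 6 of the 9 genes were higher and 3 lower. Under loess 4 were higher and 5 lower, with Cyp3a11, Cyp3a13, Cyp3a25 and Cyp3a41a among the lower ones. The largest difference on the higher side was that of Cyp3a59 at 0.38, inside the range of -0.54 to 0.70 that held 95% of genes of its level. For Cyp2b9 that range was -0.62 to 0.91, and its -1.02 lay outside it. That is no test either, since the genes were chosen by differences on these arrays.

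For EEC+TMA against No treatment, 1 gene was at least 2-fold higher (Cyp2b9) and 1 at least 2-fold lower (Cyp3a25), against 0.0873% of all genes at least 2-fold higher and 0.569% at least 2-fold lower. Cyp2b9, at 1.01, ranked 26 from the top of 16140 genes. Of the 9 genes above background, Cyp2b10, Cyp2b13, Cyp3a13 and Cyp3a41a had exactly the same value on both arrays, and the median log2 difference was 0. Identical values are common in the deposited table: 62.9% of the 33793 main probe sets were identical between the EEC+TMA and No treatment arrays, 53.3% between the TMA and No treatment arrays, and 46.5% on all 3. What produced the identical values is unstated in the sources used here. The 3 comparisons share arrays in pairs, so their values are not independent of each other.

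**Figure D2:**
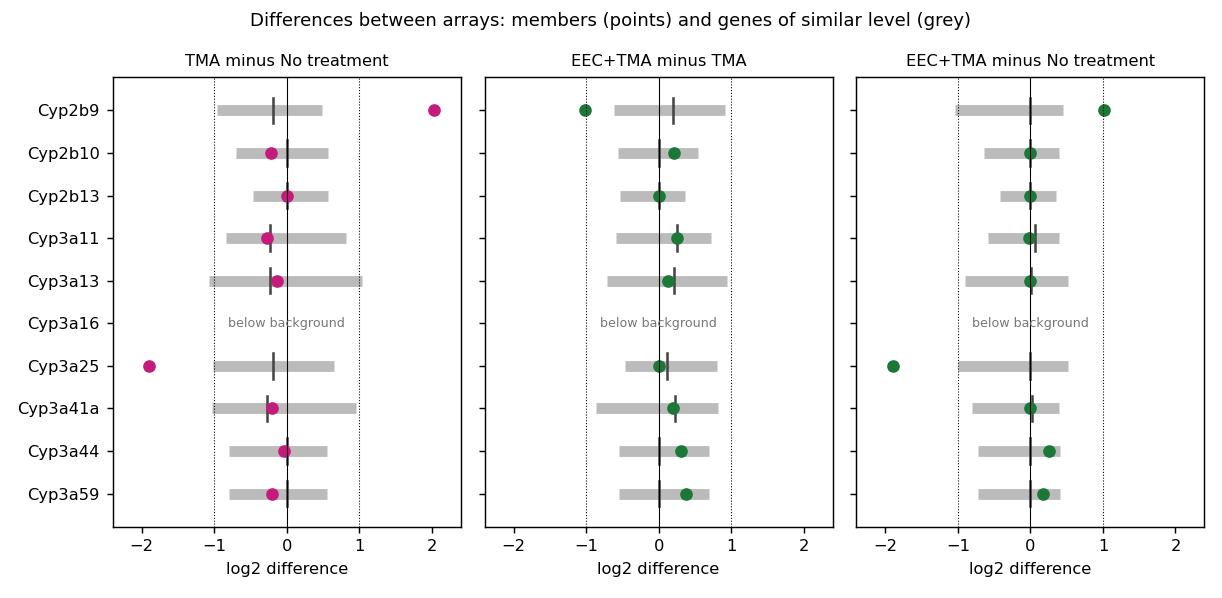
Log2 difference (x axis) of each gene in the 3 comparisons (points), with the median (tick) and the central 95% (grey bar) of other genes within 0.5 log2 units of its level; dotted lines mark 2-fold. Cyp2b9 lies outside its bar in all 3 comparisons, Cyp3a25 in those against No treatment, and the other genes inside theirs. Cyp3a16 was below background. The genes were chosen by differences on these arrays, so the bars give a scale and no test.

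**Figure D3:**
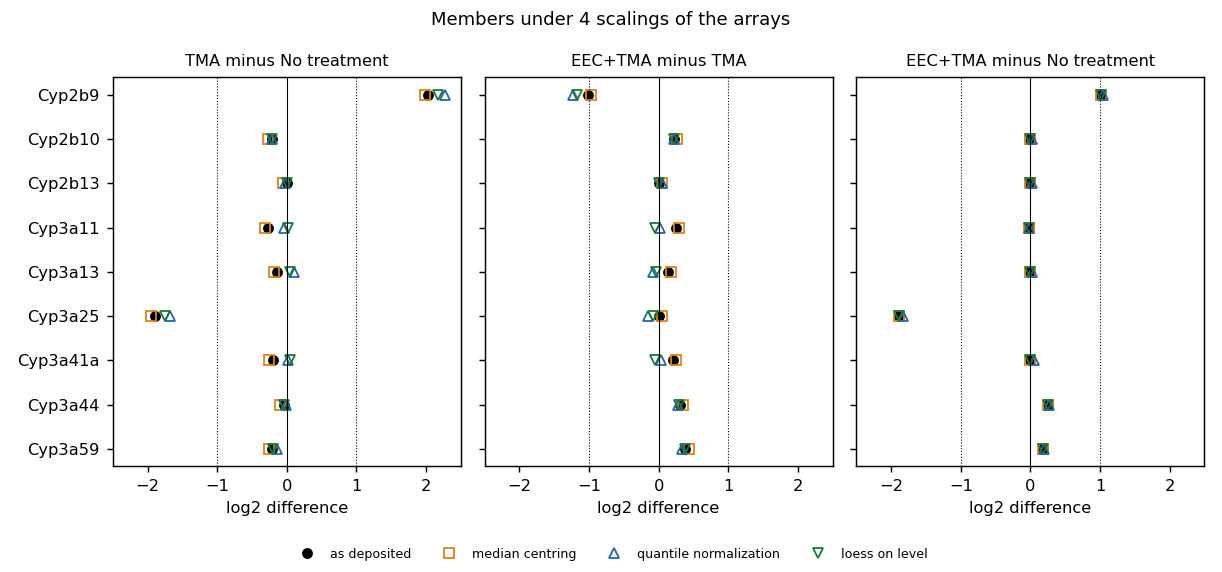
Log2 difference (x axis) of the 9 genes above background with the values as deposited and after median centring, quantile normalization and loess on level. Cyp2b9 keeps its sign in all 3 comparisons and crosses the 2-fold line once, at -0.97 in EEC+TMA minus TMA, and Cyp3a25 keeps its sign against No treatment. Small differences such as those of Cyp3a11, Cyp3a13 and Cyp3a41a, and of Cyp3a25 in EEC+TMA minus TMA, change sign.

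The TMA array stood apart in its controls, which touches each comparison that uses it. For the 39 probe sets of the poly-A spike-in, RNA that is added during preparation, the median log2 level was 4.98 in EEC+TMA liver, 5.76 in TMA liver and 4.95 in No treatment liver. By the background rule 16326, 16039 and 16319 genes were above background on the EEC+TMA, TMA and No treatment arrays. All 7 hepatocyte markers were above background on every array, and their summed log2 level was 81.1 in EEC+TMA liver, 79.0 in TMA liver and 80.3 in No treatment liver. The 5 intestinal epithelium markers summed to 24.0, 23.5 and 24.0 on the same arrays. Only 2 of them, Fabp2 and Apoa4, were above background, and Vil1, Lct and Sis were below it on every array. Sums for sinusoidal endothelium (4 markers, all above background) were 27.8, 25.3 and 27.4, for stellate cells (4 markers, all above background) 24.5, 23.8 and 24.98, and for Kupffer cells and macrophages (5 markers, all above background) 31.4, 30.4 and 29.4, in the order EEC+TMA, TMA and No treatment. The sums for periportal hepatocytes (3 markers) were 28.7, 27.6 and 28.5, and for pericentral hepatocytes (4 markers), where many P450 genes are strongest, 41.3, 39.7 and 40.9. Cholangiocyte markers (2 of 4 above background) gave 15.0, 15.2 and 15.0, and B and plasma cell markers (1 of 4 above background) 11.4, 11.4 and 11.1. In whole liver, fewer cells of a type and less RNA per cell cannot be told apart. The part of the spike-in level, the marker levels or the array in the P450 differences was not tested.

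The receptors that control these families differed less between the arrays than Cyp2b9 and Cyp3a25, the 2 widest-ranging members. The arrays read RNA, so the activity of the receptors was not measured, and their part in the P450 levels was not tested. The gene lists here and below were chosen with earlier results of these data known, so their counts are no tests. PXR (Nr1i2) read 7.03 in EEC+TMA liver, 6.79 in TMA liver and 6.96 in No treatment liver. CAR (Nr1i3) read 7.73 on the EEC+TMA array and an identical 7.60 on the TMA and No treatment arrays. Of the 10 receptors and co-regulators listed, which also hold Rxra, Hnf4a, Nr0b2, Ppargc1a, Foxa2, Foxo1 and Cebpa, none was 2-fold apart in any comparison. Ncoa1, a coactivator of nuclear receptors, was the one past 1.5-fold, at 5.93 in EEC+TMA liver, 5.32 in TMA liver and 5.99 in No treatment liver. After quantile normalization it was under 1.5-fold, at -0.55 for TMA minus No treatment and 0.53 for EEC+TMA minus TMA. For TMA minus No treatment 6 were lower, 1 higher and 3 identical, but 8 were higher after quantile normalization and 7 after loess. Between EEC+TMA and TMA 7 were higher and 3 identical, with 5 of 10 higher under each of those scalings. Between EEC+TMA and No treatment 5 were higher, 1 lower and 4 identical, with 9 higher and 1 lower after quantile normalization.

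P450 enzymes need electrons and haem. Por, the reductase that passes electrons from NADPH to all microsomal P450 enzymes, read 7.56 in EEC+TMA liver, 7.29 in TMA liver and 7.48 in No treatment liver. Cyb5a, the cytochrome b5 that supports many Cyp3a reactions, read 8.15 in EEC+TMA liver, 7.83 in TMA liver and 8.15 in No treatment liver. Both were lowest on the TMA array, by less than 1.3-fold. Alas1, the rate-limiting enzyme of haem synthesis and itself a CAR and PXR target, read 8.33 in EEC+TMA liver, 7.45 in TMA liver and 8.55 in No treatment liver. Alas1 was thus 2.14-fold lower on the TMA array than on the No treatment array, with log2 differences of -0.85 after quantile normalization and -0.92 after loess, both under 2-fold. Hmox1, which breaks haem down, read 5.89 in EEC+TMA liver, 5.60 in TMA liver and 5.10 in No treatment liver, 1.73-fold higher with EEC+TMA than with No treatment. Of the 7 genes of this list, 1 was higher, 5 were lower and 1 identical for TMA minus No treatment, with 3 higher after quantile normalization and 4 after loess. In EEC+TMA minus TMA 5 were higher and 1 lower, and 4 were higher under each of those scalings. In EEC+TMA minus No treatment 2 were higher and 3 lower, but 4 higher and 3 lower after quantile normalization.

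Among other genes that CAR or PXR can induce, none was 2-fold higher in TMA than in No treatment liver under any of the scalings tried. Of 32 such genes 30 were on the array and 25 were above background on both the TMA and No treatment arrays. None of the 25 was at least 1.5-fold higher on the TMA array, where 2.25% of all genes above background on both arrays were, and 3 were at least as much lower, where 6.38% were. After quantile normalization 1 gene, Cyp2c37, a P450 of the Cyp2c family, was past 1.5-fold on the higher side (0.66). The 3 were Ces2c, a carboxylesterase, Abcc2, the canalicular exporter of conjugates, and Cyp2a4, a steroid hydroxylase whose probe set is not unique. Ces2c read 5.77 in EEC+TMA liver, 3.98 in TMA liver and 5.09 in No treatment liver, and its TMA value is dim, with a background level of 3.25 on that array. Abcc2 read 9.53 in EEC+TMA liver, 8.72 in TMA liver and 9.82 in No treatment liver. Cyp2a4 read 5.92 in EEC+TMA liver, 5.12 in TMA liver and 5.88 in No treatment liver. All 3 were lowest on the TMA array, and Cyp2a4 lies inside the Cyp2b cluster. The signs were split, 9 higher and 9 lower with 7 identical, and 15 were higher after quantile normalization and after loess.

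For EEC+TMA minus TMA 6 of the 25 genes were at least 1.5-fold higher and none as much lower, where 4.69% and 2.11% of all genes above background on both arrays were. Gstm3, a glutathione transferase, read 7.80 in EEC+TMA liver, 6.66 in TMA liver and 6.84 in No treatment liver. With Ces2c it was 1 of 2 genes at least 2-fold higher, at log2 differences of 1.14 for Gstm3, which was under 2-fold (0.93) after quantile normalization, and 1.80 for Ces2c. The others of the 6 were Abcc2 (0.81), Cyp2a4 (0.80), Cyp1a2, the aryl hydrocarbon receptor target (0.77), and the basolateral exporter Abcc3 (0.61). The count was 5 after quantile normalization and 4 after loess. Abcb1a, the efflux pump P-glycoprotein, read 3.89 on the EEC+TMA array and 2.72 on the TMA array, which is not above background there, and 3.46 on the No treatment array. It was at least 1.55-fold higher on the EEC+TMA array than on the TMA array. For EEC+TMA minus No treatment 17 of 26 were higher, 2 lower and 7 identical, with 22 higher and 3 lower after quantile normalization. Over all genes above background on both arrays, 25.4% were higher and 19.9% lower. Past 1.5-fold stood Gstm3 (0.96) and Ces2c (0.69) on the higher side and Papss2, which makes the sulphate donor, on the lower side (-0.60). Of all genes above background on both arrays, 0.892% were past it on the higher side and 3.16% on the lower. After quantile normalization Papss2 was under 1.5-fold (-0.575), and Gstm2, a glutathione transferase, was past it on the higher side (0.59).

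Other female-biased liver genes were mostly dim. Of 13 listed, 6 were above background, and only Abcd2, a peroxisomal fatty acid transporter, was past 1.5-fold in a comparison. Abcd2 read 3.77 in EEC+TMA liver, 5.50 in TMA liver and 4.59 in No treatment liver. Like Cyp2b9 it was highest on the TMA array, but its EEC+TMA value was the lowest of the 3, 3.31-fold below TMA. That EEC+TMA value is dim, with a background level of 3.15 on that array. The remaining 5, Cux2, Acot3, Cyp17a1, Slc22a26 and Cspg5, stayed within 0.23 log2 units in each comparison.

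All 12 listed male-biased liver genes were above background and lower in TMA than in No treatment liver, with a median log2 difference of -0.66. At least 1.5-fold lower were 7 of the 12, where 6.38% of all genes above background on both arrays were, and 5 of the 12 after quantile normalization and after loess. The list was chosen with earlier results of these data known, so this comparison describes it and is no test. Quantile normalization left 11 lower and loess 10, with medians of -0.45 and -0.41. Cyp4a12b, a fatty acid hydroxylase whose probe set is not unique, read 8.40 in EEC+TMA liver, 7.25 in TMA liver and 8.76 in No treatment liver. Cyp2d9, a testosterone hydroxylase, read 9.76 in EEC+TMA liver, 8.37 in TMA liver and 9.50 in No treatment liver. EEC+TMA against TMA had 11 higher and 1 lower under each scaling, with a median of 0.59 as deposited and 0.34 after loess. Moxd1, a monooxygenase-like protein, had the largest of these differences (1.69), at 5.07 in EEC+TMA liver, 3.38 in TMA liver and 4.07 in No treatment liver. Its TMA value lay near the background level of 3.25 on that array, so the size of the difference rests on a dim value. Against No treatment, EEC+TMA was higher for 7 and lower for 5, the lowest being the organic anion uptake carrier Slco1a1 at -0.996. Over all genes above background on both arrays, 19.1% were higher and 37.6% lower for TMA minus No treatment, and 36.4% were higher and 19.3% lower for EEC+TMA minus TMA.

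Among 8 genes of growth hormone signalling, Onecut1, a liver transcription factor of the growth hormone network, read 7.01 in EEC+TMA liver, 7.08 in TMA liver and 8.59 in No treatment liver, which is the shape of Cyp3a25. Bcl6, a repressor that opposes STAT5 at sex-biased genes in mouse liver, read 6.66 in EEC+TMA liver, 5.20 in TMA liver and 5.53 in No treatment liver. Igf1, the main growth hormone target made by liver, read 8.10 in EEC+TMA liver, 8.38 in TMA liver and 9.11 in No treatment liver. Onecut1 and Igf1 were lower on both treated arrays than on the No treatment array, and Bcl6 was highest on the EEC+TMA array. Stat5b, which carries the signal to sex-biased genes, stayed within 0.40 log2 units in each comparison, and so did Stat5a. Of the 7 genes above background on both the TMA and No treatment arrays, 5 were lower and 2 identical, and 6 were lower and 1 higher after quantile normalization and after loess. For EEC+TMA minus TMA 3 were higher and 2 lower, with 4 higher and 3 lower after quantile normalization and after loess. For EEC+TMA minus No treatment, over 8 genes, 2 were higher and 4 lower, but 5 higher and 3 lower after quantile normalization.

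**Figure D4:**
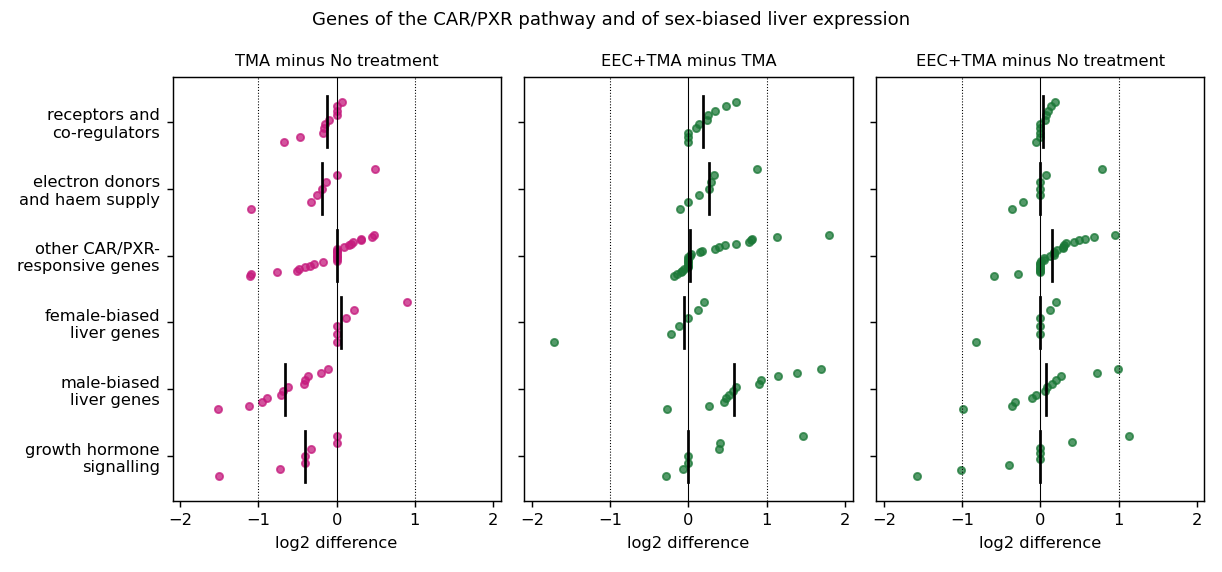
Log2 difference (x axis) of the listed genes above background on both arrays of a pair (points, 1 per gene) with the median of each list (black line); dotted lines mark 2-fold. In TMA minus No treatment the 12 male-biased genes lie at or below -0.11, and in EEC+TMA minus TMA 11 of them lie above 0, in the scaling as deposited. The lists were chosen with earlier results of these data known, so this is no test of them.

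The genes whose pattern over the 3 arrays lay closest to the 2 leading genes were found by the Euclidean distance over the differences TMA minus No treatment and EEC+TMA minus TMA, among 12068 candidate genes with unique probe sets above background on all 3 arrays. Closest to Cyp2b9 were Mettl7a3, a methyltransferase-like gene (distance 0.40), Fbxw23, an F-box gene (0.55), and Orm2, an acute phase protein (0.84). Mettl7a3 read 6.12 in EEC+TMA liver, 7.32 in TMA liver and 5.64 in No treatment liver. Closest to Cyp3a25 were Slc25a30, a mitochondrial carrier (0.39), Onecut1 (0.39) and Cyp46a1, the cholesterol 24-hydroxylase (0.45). Cyp46a1 read 6.02 in EEC+TMA liver, 5.98 in TMA liver and 7.42 in No treatment liver. With 3 arrays such likeness describes these values only.

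**Figure D5:**
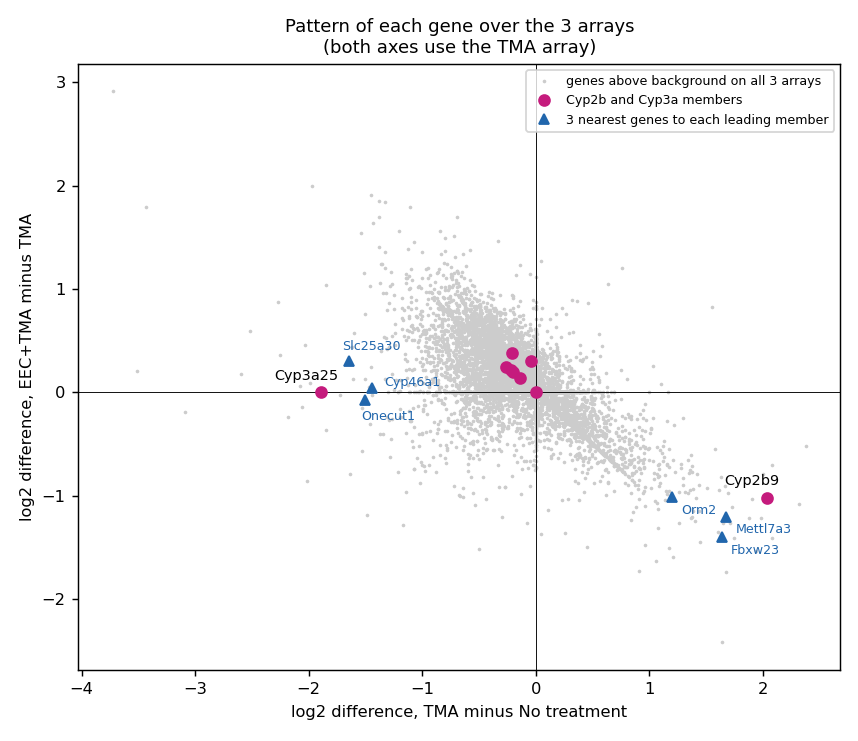
Each gene above background on all 3 arrays by its log2 difference TMA minus No treatment (x axis) and EEC+TMA minus TMA (y axis), with the family members (circles) and the nearest genes (triangles). Both axes use the TMA array, which by itself spreads points from the upper left to the lower right; Cyp2b9 lies at 2.03 and -1.02 and Cyp3a25 at -1.89 and 0.00.

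Short motifs of transcription factors active in liver were searched in the 300-base windows. The nuclear receptor core AGGTCA, searched on both strands, was in 6 of the 10 windows and in 16.3% of all 32851 windows of the same length. It began 138 bases before the start in both Cyp2b9 and Cyp2b13, and it occurred 2 times in both Cyp3a25 and Cyp3a59. The related core AGTTCA was in the windows of Cyp3a11 and Cyp3a41a, and in 13.99% of all windows. The HNF4A motif CAAAGTCCA was in those of Cyp3a11, Cyp3a16 and Cyp3a41a, and in 0.475% of all. The FOXA motif TGTTTAC was in the same 3 windows and in that of Cyp3a44, and in 3.65% of all. The STAT5 motif TTCNNNGAA was in none of the 10 windows and in 8.30% of all. No 2 motifs overlapped in the windows of the 10 genes. Windows of very similar sequence share matches: Cyp2b9 with Cyp2b13 and Cyp3a25 with Cyp3a59 share all of theirs. Cyp3a16, Cyp3a41a and Cyp3a44 share the FOXA match, and Cyp3a16 and Cyp3a41a also the HNF4A match. Of these, AGTTCA was only in Cyp3a41a and AGGTCA only in Cyp3a44. Counts over the 10 windows are therefore not counts of independent sequences. A match of letters is no measure of binding, and the windows leave out more distant elements.

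The authors' deposited table for TMA against No treatment lists 198 probe sets, 71 with a higher and 127 with a lower signed fold, and 2 of the 10 genes are among them. In the authors' deposited table Cyp2b9 has a signed fold of 4.09 and Cyp3a25 one of -3.72. The authors' deposited table of KEGG maps places Cyp2b9 in 4 of 62 maps and Cyp3a25 in 5. Its retinol metabolism map holds 5 genes, Cyp2b9 on the higher side and Cyp3a25, Cyp4a12b, Cyp4a32 and Ugt2b5 on the lower side. The authors' deposited table for EEC+TMA against TMA lists 68 probe sets and none of the 10 genes, its smallest fold being 2.51, above the 2.03 of Cyp2b9.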

How the data were processed

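Per probe set and array there is 1 log2 value, deposited by the authors in a table named raw data and, with the same values, in a series matrix. How they summarised and normalized it is unstated in the sources used here. The deposited lists hold a signed fold per probe set, a score that equals the ratio of both arrays or minus its inverse, and the deposited KEGG table holds counts of genes per map. Levels were used as deposited. Values were raised to the background level of each array, the 95th percentile of chemosensory receptor probe sets, before the 2-fold rule was applied. Symbols with several probe sets were represented by the brightest. Where a gene lay above background on 1 array of a pair, its fold is against the background level of the other and reads "at least". Differences are TMA minus No treatment, EEC+TMA minus TMA and EEC+TMA minus No treatment. With 1 array per group no test was made.

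The members and lists were chosen with earlier results of these data known. Genes named outside the family are list members at least 1.5-fold apart in a pair (with Nr1i2, Nr1i3, Por and Cyb5a always), further Cyp2b and Cyp3a symbols, and the 3 nearest in pattern to the 2 widest-ranging members. List members named without such a difference, and the genes of the retinol map, were added for completeness. Alternatives were quantile normalization, median centring, loess (span 0.3), other background levels, the mean of probe sets, the series matrix, unique probe sets and thresholds of 1.5-fold and 3-fold. The comparison with genes of similar level and the lists under other scalings were added after the values were seen. Promoter windows came from RefSeq (GRCm38.p6) by symbol and were aligned with Biopython 1.88. Scripts ran in Python 3.11.15 with numpy 2.4.6, pandas 2.3.3 and scipy 1.17.1 and were tested on simulated data.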

Additional observations from a re-analysis of the deposited data

Results flagged for a closer look

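A signal in control probes outside the main measurement differed between the arrays. Across 39 poly-A spike-in probe sets the median log2 difference was 0.99 for TMA minus No treatment, with 38 higher and 1 identical. The same probe sets gave -0.99 for EEC+TMA minus TMA, with 37 lower, and -0.07 for EEC+TMA minus No treatment. The exon normalization controls had medians of 6.49 in EEC+TMA, 6.07 in TMA and 6.43 in No treatment liver. The part of this shift in the P450 values was not tested.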

How the results depend on the processing

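The median log2 difference of the 10 genes changed sign under loess. It went to 0.0085 for TMA minus No treatment (as deposited -0.17) and to -0.042 for EEC+TMA minus TMA (as deposited 0.17). These medians hold Cyp3a16, below background on every array, whose difference is only the one between background levels. Of the 9 other genes, 5 were lower under loess in each of these comparisons. Their median thus stayed negative for TMA minus No treatment and turned negative for EEC+TMA minus TMA. The cause of that turn was not tested. The count of genes at least 2-fold lower for EEC+TMA minus TMA was 1 as deposited and 0 after median centring, where Cyp2b9 gave -0.97, and 0 at a 3-fold threshold. The count at least 2-fold higher for EEC+TMA minus No treatment was 1 as deposited and 0 at a 3-fold threshold. The other 79 recomputed counts and medians stayed within 1.5 times the deposited count or 0.58 log2 units of the median. Over all genes, the numbers higher and lower for TMA minus No treatment were 105 and 202 as deposited, 148 and 130 after quantile normalization, 95 and 247 after median centring, and 133 and 149 after loess. For EEC+TMA minus TMA they were 99 and 60, 60 and 91, 127 and 47, and 68 and 85 under the same settings. Raising dim genes to the background level by itself put the median of all genes at 0.11 for TMA minus No treatment, against 0 without a background level. No paired analysis was possible because each group has 1 array. Leaving out a replicate was not possible for the same reason.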
